A study of Rattus norvegicus with 26 samples.

Results

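Heart RNA of 4 SHRSP fetuses was compared with that of 7 F344 fetuses at day 20 of development (E20), which is 11 of the 26 arrays of the series. The arrays were chosen by the strain and the stage in their sample titles. The paper names 7 SHRSP and 8 F344 fetuses, and its authors left out arrays that correlated too little with their own group. After that step 4 and 7 arrays remained, so the loss fell more on SHRSP. The spread within the groups and the separation of the strains are therefore those of the arrays kept. How the arrays left out would change them was not tested. SHRSP, the stroke-prone line of spontaneously hypertensive rats, becomes hypertensive and develops left ventricular hypertrophy as an adult, and F344 is an inbred rat strain with normal blood pressure. All animals were male and kept in 1 facility, and no treatment is named. The other arrays, 7 of SHRSP and 8 of F344 at week 14, served to ask which differences of the fetal heart were also found in the adult heart. Blood pressure was measured in adults only, so that of the fetuses is not known.

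Each array holds RNA of 1 fetus. The litters are not named, and fetuses of 1 litter would share a mother, so the p-values do not measure the spread between litters. The spread behind them is that within the groups, pooled over all 26 arrays, adult hearts included. For Lcn2 the standard deviation was 0.05 in SHRSP fetuses, 0.04 in F344 fetuses and 1.18 in adult F344. Its standard error at E20 was 0.44. Strain, mother and colony cannot be told apart. According to the methods, the atria were removed at E20, both ventricles were used and RNA was isolated with another kit than at week 14, whereas the labels name the whole heart and 1 method. Fetuses of both strains were treated alike by either account, but a change between the stages can include tissue and kit.

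Shortly before birth the rat heart still grows by division of its muscle cells and depends on glucose and lactate, and the capacity to burn fatty acids is built up around birth. At that time red cells, neutrophils and platelets come from the fetal liver and reach the heart with the blood, so that RNA of blood cells is part of the RNA of an unperfused fetal heart. Genes that already differ between 2 inbred strains at this stage do so before the adult rise of blood pressure.

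The arrays are Illumina RatRef-12 BeadChips with 1 colour and 22523 probes, and the authors' values are log2 intensities that were quantile-normalized over all arrays. They ran from 6.64 to 15.53 with a median of 7.16 on the E20 arrays. Means below 7.5 are called dim here, since there the background compresses a difference in RNA, as does the upper end of the scale. Over all probes, Pearson's r was 0.994 to 0.998 between SHRSP fetuses, 0.990 to 0.998 between F344 fetuses and 0.984 to 0.993 between the strains. The values within the strains are in part a product of the authors' filter, which left out arrays of low correlation within their group. SHRSP fetuses 1 and 2 (r = 0.998) and fetuses 3 and 4 (r = 0.997) resembled each other more than any other SHRSP pair did. Whether these pairs share a litter or a day of work is not stated. Of 11 genes of heart muscle identity none was dim, while all 22 markers of T and NK lymphocytes, 16 of 17 markers of thymus, lung and liver and 12 of 14 skeletal muscle markers were dim in both strains.

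Between the strains, 28 of the 22523 probes (0.124%) were called at E20, 14 higher (0.0622%) and 14 lower (0.0622%) in SHRSP. Called means a log2 difference of more than 1.5 in either direction at an adjusted p under 0.05 in limma. For all 28 the values of the 4 SHRSP fetuses lay outside the range of the 7 F344 fetuses, which was so for 409 of the 499 genes below and for 5.65% of all genes. Of these probes 17 carry a gene name, 10 higher and 7 lower, and 11 are unnamed here. The plot of the called genes shows each fetus. Just inside the limit were Ahsp (1.51) and Dynlt3 (1.55), and just outside it were Rnf115 (-1.47) and Casq2 (-1.40).

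**Figure D1:**
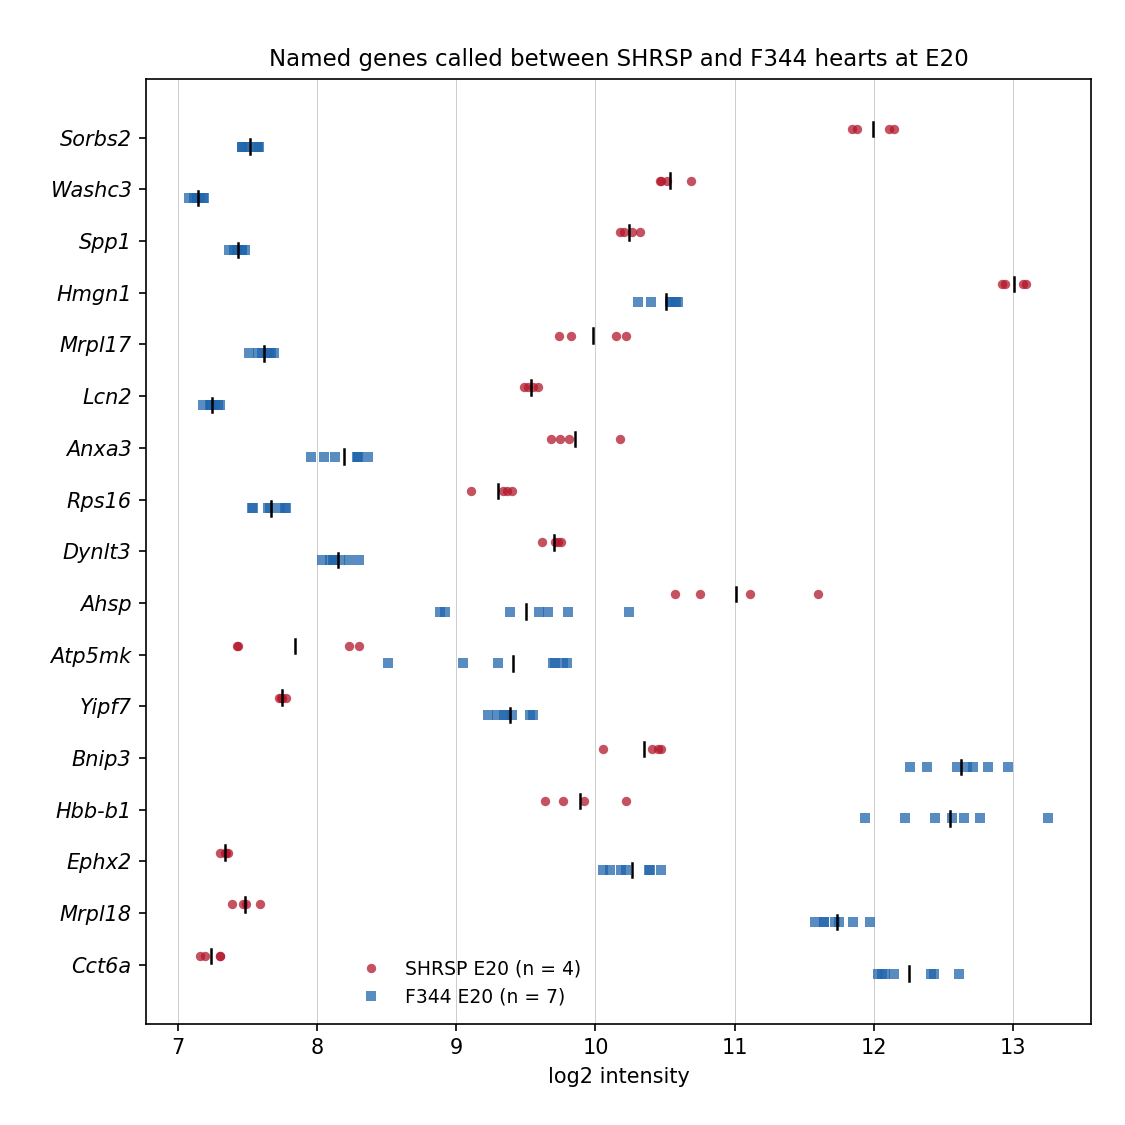
Log2 intensity (x axis) of the 17 named genes called at E20, 1 point per fetus, with the 4 SHRSP fetuses as circles above the 7 F344 fetuses as squares and black ticks at the means. In no gene do the strains overlap, and Washc3, Spp1, Lcn2, Ephx2, Mrpl18 and Cct6a have a mean under 7.5 in 1 of the strains.

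With no limit on the fold, 723 probes (3.21%) passed an adjusted p under 0.05, 349 higher and 374 lower. Of 13337 genes, each given by its brightest probe, 499 passed (3.74%), 243 higher (1.82%) and 256 lower (1.92%). Most of these differences were small, with 340 genes under 0.5 on the log2 scale, 125 between 0.5 and 1 and 34 over 1. With each close pair of SHRSP fetuses averaged to 1 sample, 159 probes were higher and 184 lower. Because of this, each gene was also judged by 22 alternative fits. Of the 499 genes 191 (1.43% of those tested) passed in every fit in which their probe was tested, 95 higher and 96 lower, among them 33 of the 34 genes with a difference over 1. The exception was Pf4. Unless stated otherwise, the genes described below passed in every fit.

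Most strain differences of the fetal heart were also found in the adult heart. Of the 499 genes 308 passed at week 14 in the same direction, 5 in the opposite direction and 186 did not pass, where 11% of all genes passed at week 14. The interaction described below passed in 128 of the 499 genes and in 3.44% of all genes. The 499 were chosen by their difference at E20, which is part of the interaction. Their share is therefore raised by the choice and cannot be set against that of all genes. The comparisons at E20 and at week 14 share no arrays. Of the 28 called probes 20 were called at week 14 in the same direction, where 0.200% of all probes were called, and 13 of them carry a name. Another 5 passed in the same direction without reaching the limit of the fold. For the remaining 3 the difference was absent at week 14, by which is meant that its 95% interval lay within -0.5 to 0.5 and that the change between the stages, the interaction of strain and stage, passed the adjusted p. In bulk tissue, fewer cells of a type and less RNA per cell cannot be told apart in any of these comparisons.

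**Figure D2:**
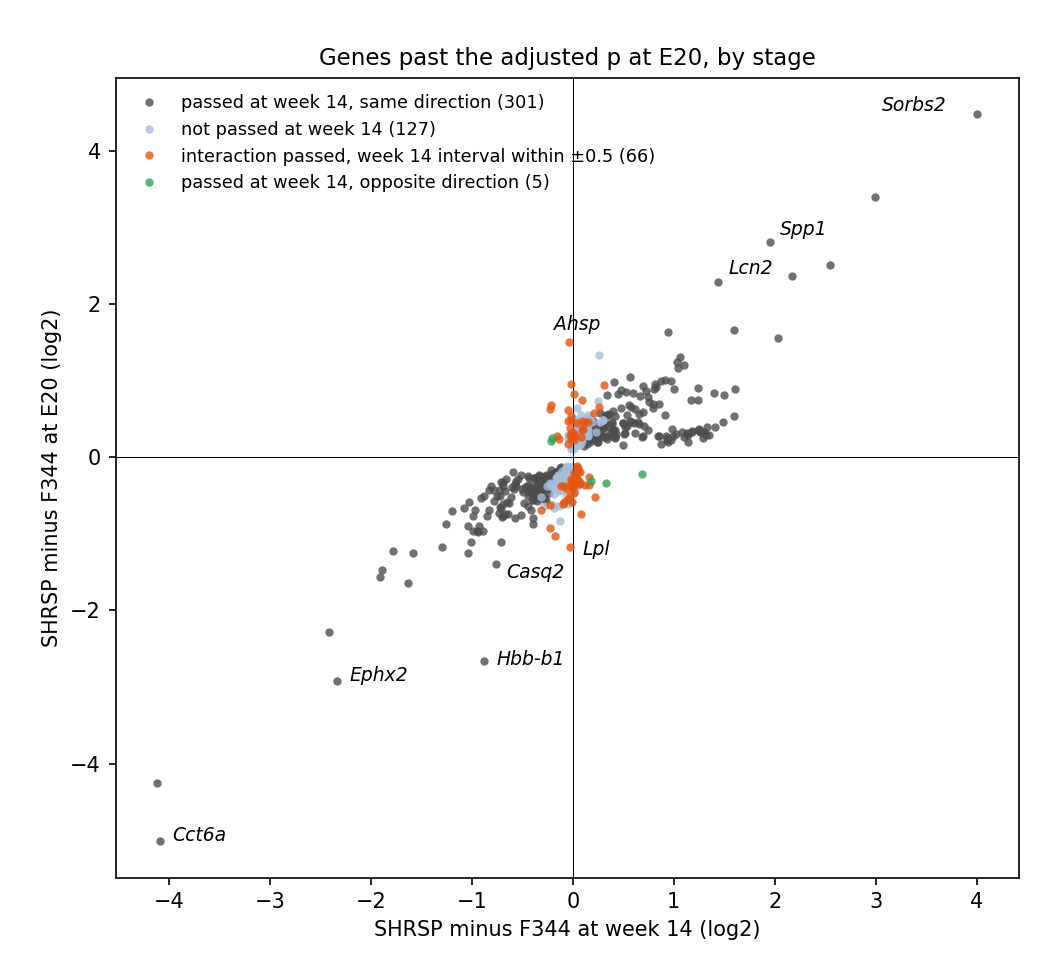
Log2 difference SHRSP minus F344 at week 14 (x axis) and at E20 (y axis) for the 499 genes that passed at E20, 1 point per gene. The genes with large differences lie near the diagonal, and Ahsp, Lpl and Hbb-b1 lie away from it. Orange marks 66 genes whose interaction passed with a week 14 interval within -0.5 to 0.5, and 4 more genes with such an interval are drawn in green, since they passed at week 14 in the opposite direction.

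Among genes of the contractile apparatus and of calcium handling, Sorbs2 was higher and Casq2 lower in SHRSP. Sorbs2 (Argbp2) is an adaptor protein of the Z-disc and the intercalated disc. Its log2 intensity was 12.14, 12.11, 11.84 and 11.88 in SHRSP, against 7.46, 7.5 and 7.58 (lowest, median and highest) in F344. The difference was 4.47 (SE, standard error, 0.13, adjusted p = 4.93e-19, limma), which is 22.2-fold in intensity, and it was 4.01 at week 14. In F344 the gene was in the dim range or just above it at both stages. Of 27 genes of the sarcomere and the Z-disc, 4 passed (14.8%), and Sorbs2 alone did so in every fit. Fhl2, a LIM protein that binds titin, had -0.89 and Myl9, a regulatory myosin light chain of smooth muscle and non-muscle cells, -0.74. Both lost the call with SHRSP fetuses 3 and 4 left out together (adjusted p = 0.159 and 0.217).

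Casq2, the calsequestrin that buffers calcium in the sarcoplasmic reticulum of the heart, had 8.43, 8.51, 7.90 and 8.03 in SHRSP, against 9.06, 9.56 and 10.25 in F344. The difference of -1.40 (SE 0.16, adjusted p = 1.44e-06, limma) fell short of the limit of the fold, and no SHRSP fetus reached the lowest F344 fetus. At week 14 it was -0.76, with an interaction of -0.64 (adjusted p = 0.134). Cacna1c, the pore of the L-type calcium channel, was higher by 0.50 (adjusted p = 0.00107) and by 0.14 at week 14 (adjusted p = 0.348). Of 18 genes of calcium cycling, 3 passed at E20 (16.7%), and the third, Cacna1g, passed in 9 of the 22 fits only. Kcnj8, a subunit of ATP-sensitive potassium channels in pericytes and smooth muscle, was higher by 0.43 at E20 and by 0.66 at week 14.

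Genes of mitochondria stood on both sides. Mrpl17 and Mrpl18 encode proteins of the large subunit of the mitochondrial ribosome. Mrpl17 had 10.22, 10.15, 9.82 and 9.74 in SHRSP, against 7.51, 7.64 and 7.69 in F344, and Mrpl18 had 7.47, 7.39, 7.59 and 7.49 in SHRSP, against 11.58, 11.72 and 11.97 in F344. The differences were 2.36 and -4.25 (adjusted p = 2.91e-16 and 1.20e-22 from limma), so probes for 2 genes of 1 particle differed in opposite directions, and both did so at week 14 as well (2.17 and -4.12). Mrpl48 was lower by 0.96 on the log2 scale at E20 and by 0.99 at week 14. Of 53 genes of the mitochondrial ribosome 7 passed (13.2%, beside 3.74% of all genes), 4 higher and 3 lower, and Mrpl17, Mrpl18 and Mrpl48 were the 3 that passed in every fit. With the close SHRSP pairs averaged, 1 was higher and 2 were lower. The median difference of the 53 was 0.06, beside -0.0012 over all genes.

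Tfam, which packages mitochondrial DNA and drives its transcription, was higher in SHRSP at both stages. It had 10.85, 10.88, 10.80 and 10.75 in SHRSP, against 9.46, 9.58 and 9.70 in F344, which makes a difference of 1.24 (standard error 0.05, adjusted p = 3.09e-16 by limma) at E20 and of 1.03 at week 14. Bnip3, a receptor on the outer membrane that marks mitochondria for removal and is induced by low oxygen, had 10.47, 10.45, 10.06 and 10.41 in SHRSP, against 12.26, 12.67 and 12.96 in F344, a difference of -2.28 (adjusted p = 2.29e-09). The probe ILMN_1650254, unnamed here, has the week 14 difference that the paper lists for Bnip3-Ps1 (-4.64). It differed by -4.17 at E20. Whether the Bnip3 probe shares signal with that transcript was not tested, so the transcript behind it is uncertain. Hif1a, the oxygen-sensitive transcription factor upstream of Bnip3 in many cells, was lower by 0.55 on the log2 scale (adjusted p = 0.00018). The other 2 of the 4 hypoxia genes that passed of 17 (23.5%) were Bnip3l and Pdk1 at 0.32 and 0.26, and neither passed without SHRSP fetus 3 or without fetus 4. Atp5mk, a small subunit of the ATP synthase, had 7.42, 7.43, 8.23 and 8.30 in SHRSP, against 8.51, 9.70 and 9.80 in F344. Its difference of -1.56 passed in every fit (adjusted p = 3.23e-05) and fell short of the limit of the fold without F344 fetus 6 or 7 or without SHRSP fetus 1 or 2. SHRSP fetuses 1 and 2 were low and 3 and 4 high for this gene, as in the close pairs of arrays. None of the 16 genes of the tricarboxylic acid cycle passed (limma, 3 at an unadjusted p under 0.05).

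Ephx2, the soluble epoxide hydrolase that breaks down vasodilating epoxides of arachidonic acid, was lower in SHRSP. It had 7.30, 7.36, 7.34 and 7.35 in SHRSP, against 10.06, 10.22 and 10.47 in F344, a difference of -2.92 (SE 0.11, adjusted p = 2.91e-16, limma). All 4 SHRSP fetuses were dim, so the difference in RNA may be understated. At week 14 the difference was -2.33, and the level in SHRSP was 8.98, no longer dim. Of 43 enzymes of epoxides, glutathione and xenobiotics 10 passed at E20 (23.3%), 5 higher and 5 lower, and 7 passed in every fit. Beside Ephx2 these were Ptgr2 (0.89) and Ptgr1 (0.40), which reduce prostaglandins, the glutathione transferases Gstm1 (0.88), Gstm7 (-0.55) and Gsta4 (-0.69), and Sod2, the superoxide dismutase of mitochondria (-0.57). The median difference of the 43 was 0.0021, and 33 did not pass. Without SHRSP fetus 1, 3 members were higher in place of 5.

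Gstm1 had 9.33, 9.38, 9.0 and 9.19 in SHRSP, against 8.17, 8.39 and 8.55 in F344 (adjusted p = 1.18e-05 from limma), and at week 14 it was higher by 0.48. Gstm1 and Gstm7 are members of 1 gene family with similar sequences, so their probes may share signal. Ptgr2 differed by 0.89 at E20 and by 1.60 at week 14, and this change passed as an interaction (-0.71, adjusted p = 5.95e-07). Gsta4, which conjugates aldehydes of lipid peroxidation, had -0.69 at E20 and -0.32 at week 14 (interaction -0.37, adjusted p = 0.0438).

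The probe with the largest difference of all belongs to Cct6a, a subunit of the chaperonin that folds actin and tubulin. It had 7.16, 7.19, 7.30 and 7.30 in SHRSP, against 12.03, 12.14 and 12.61 in F344, a difference of -5.01 (SE 0.10, adjusted p = 1.20e-22, limma). The SHRSP values lie in the dim range at both stages. Of the other 8 measured genes of chaperonins of the cytosol and of mitochondria none passed (limma, 1 at an unadjusted p under 0.05). Washc3, a subunit of the complex that builds actin on endosomes, had 10.46, 10.69, 10.52 and 10.47 in SHRSP, against 7.08, 7.14 and 7.18 in F344, a difference of 3.39 at E20 and of 2.99 at week 14, with F344 dim at both stages. Hmgn1, a protein that binds nucleosomes, had 13.09, 12.92, 13.07 and 12.94 in SHRSP, against 10.31, 10.54 and 10.59 in F344. Its difference of 2.50 was bright in both strains and was 2.55 at week 14. Anxa3, an annexin that binds phospholipids in the presence of calcium, differed by 1.66 and 1.60, Dynlt3, a light chain of dynein, by 1.55 and 2.03, and Yipf7 by -1.64 and -1.63 at E20 and at week 14.

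Each called gene is represented by 1 probe of the array, and the sequences of the probes were not used here. Less RNA in 1 strain and a variant of that strain under the probe cannot be told apart here. This concerns above all Sorbs2, Washc3, Spp1, Mrpl17, Rps16, Mrpl18 and Cct6a, with 1 strain dim or close to dim at both stages. The unnamed probe ILMN_1370609 was of the same kind, at 9.22, 9.30, 9.39 and 9.33 in SHRSP, against 6.81, 6.86 and 7.0 in F344, a difference of 2.42 at E20 and of 2.13 at week 14. ILMN_1349205 had the reverse pattern, at 8.40, 8.30, 8.23 and 8.40 in SHRSP, against 12.24, 12.48 and 13.01 in F344, a difference of -4.22 at E20 and of -3.95 at week 14. The paper lists this week 14 difference for Rpl17l1. Since the probe is unnamed here, it is not counted among the cytosolic ribosomal proteins.

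Among cytosolic ribosomal proteins 5 of 71 passed (7.04%), a list that was chosen after its values were seen. Rps16 had 9.36, 9.40, 9.34 and 9.11 in SHRSP, against 7.53, 7.66 and 7.77 in F344, a difference of 1.64 (adjusted p = 1.97e-15 from limma). At week 14 it was 0.94, with F344 dim at 7.28, and the interaction of 0.70 passed (adjusted p = 6.73e-06). Rps23 was higher by 0.85 and Rps18 was lower by 0.87 on the log2 scale. These genes have many near-identical copies in the genome, so the transcript behind such a probe is uncertain. Without F344 fetus 1, which stood at 12.74 for Rps23 when the other 6 lay at 11.79 to 12.20, 9 ribosomal proteins were higher in place of 4.

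Spp1, which encodes the secreted matrix protein osteopontin, was high in every SHRSP fetus, at 10.26, 10.17, 10.20 and 10.32, against 7.37, 7.43 and 7.48 in F344. The difference of 2.81 (SE 0.33, adjusted p = 1.76e-06, limma) was 1.96 at week 14, where SHRSP hearts spread more widely (9.44 ± 1.06, SD, n = 7) than at E20 (10.24 ± 0.07, SD, n = 4). Osteopontin is a marker of hypertrophy in the adult heart, and of 19 genes of hypertrophy and wall stress it was the only one that passed at E20 (5.26%), against 8 that were higher at week 14. Of 38 genes of the extracellular matrix 3 passed (7.89%). Ogn, the proteoglycan osteoglycin, had 10.14, 10.10, 10.34 and 10.37 in SHRSP, against 10.75, 10.88 and 11.06 in F344 (-0.67, adjusted p = 0.000251), and -0.19 at week 14 (adjusted p = 0.268). None of 19 epicardial and fibroblast markers passed (limma, 3 at an unadjusted p under 0.05, 1 higher with only the E20 arrays in the fit and 1 lower with the replicate block).

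Ifi27 and Ifi44, which are induced by interferon, were lower in SHRSP before birth. Ifi27 had 10.22, 10.04, 9.95 and 9.99 in SHRSP, against 10.92, 11.11 and 11.40 in F344 (-1.10, adjusted p = 5.49e-06 from limma). Ifi44 had 7.11, 7.08, 7.16 and 7.10 in SHRSP, against 7.78, 8.08 and 8.36 in F344 (-0.96, adjusted p = 0.00013). Both were lower at week 14 too, by 0.71 and 0.89 on the log2 scale. RT1-A1, a class I molecule of the major histocompatibility complex, was lower by 0.71 at E20 and by 1.19 at week 14, and the class I genes of rats are polymorphic and have similar copies, so its probe is uncertain. Of 37 genes of class I and the interferon response 4 passed (10.8%), 3 of them lower. Of the fourth, RT1-CE16 at 0.25, the call was lost in 9 of the 22 fits. The other 33, 23 of the 37 being dim in both strains, did not pass. None of 22 lymphocyte markers and none of 10 genes of class II passed at E20 (limma, 0 and 1 at an unadjusted p under 0.05, 0 and 2 with only the E20 arrays, 0 and 1 with array weights), whereas 15 and 6 of them were lower in SHRSP at week 14.

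Several genes of blood cells separated the strains at E20, and most of these did not at week 14. Ahsp, the chaperone that binds free alpha globin in red cell precursors, had 10.75, 11.11, 11.60 and 10.57 in SHRSP, against 8.89, 9.60 and 10.24 in F344. The lowest SHRSP fetus lay above the highest F344 fetus. The difference was 1.51 (SE 0.19, adjusted p = 3.07e-06, limma) at E20 and -0.04 (95% interval -0.35 to 0.28) at week 14, where both strains were dim, and the interaction was 1.55 (adjusted p = 0.000105). It passed the adjusted p in every fit and fell under the limit of the fold without F344 fetus 2, 3 or 4 or without SHRSP fetus 2 or 3, and with array weights. Hbb-b1, a beta globin gene, went the other way, with 9.64, 9.92, 10.22 and 9.77 in SHRSP, against 11.94, 12.56 and 13.25 in F344. Its difference was -2.66 (standard error 0.26, adjusted p = 4.10e-08) at E20 and -0.88 at week 14 (interaction -1.78, adjusted p = 0.000994).

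Of 24 genes of red cells and their precursors 3 were higher and 1 was lower in SHRSP (16.7% passed), all 4 in every fit. The other higher genes were Hbg1, a gamma-like globin, at 0.44 (adjusted p = 0.000114) and Rhd, the Rh antigen, at 0.25 (adjusted p = 0.00186). The remaining 20 did not pass, among them Alas2, the first enzyme of heme synthesis in red cells (0.13, adjusted p = 0.502), Slc4a1, the anion exchanger of the red cell membrane (0.09, adjusted p = 0.352), the embryonic globin Hbe1 (0.05, adjusted p = 0.984), and Hbb and Hba-a1, the adult globins (-0.18 and -0.28, adjusted p = 0.917 and 0.811). Hbb and Hba-a1 lay at 14.64 to 15.53 in all fetuses, at the upper end of the scale. The same fetus of each strain, SHRSP fetus 3 and F344 fetus 6, was highest of its strain for Ahsp, Hbg1, Hbb-b1 and Hbe1 and lowest for Hbb and Hba-a1. So the fetus with the most Ahsp in its strain also had the most Hbb-b1, while between the strains the genes differed in opposite directions.

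Hbb-b1 and Hbb are members of the beta globin cluster, and the start regions of both are shown because 1 differed between the strains and the other was at the top of the scale. The sequences are those of RefSeq for the reference rat in build GRCr8, 300 bases around the start of each gene, and not those of SHRSP or F344. Capitals mark CACCC and CCAAT on either strand, letters of the CACCC and CCAAT boxes of globin promoters, and 54.9% and 37.5% of 33469 promoters of this length hold them. Hbb-b1 (chr1:167643471-167643770, minus strand) holds 3 and 1 matches, and Hbb (chr1:167663672-167663971, minus strand) holds 1 and 2, and the windows are identical at 212 of 331 aligned positions (64.0%).
Hbb-b1: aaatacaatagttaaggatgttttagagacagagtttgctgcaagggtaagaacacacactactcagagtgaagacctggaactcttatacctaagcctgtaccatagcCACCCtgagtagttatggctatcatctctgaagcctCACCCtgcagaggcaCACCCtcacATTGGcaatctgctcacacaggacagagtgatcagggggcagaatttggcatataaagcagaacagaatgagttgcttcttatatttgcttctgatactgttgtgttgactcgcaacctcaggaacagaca
Hbb: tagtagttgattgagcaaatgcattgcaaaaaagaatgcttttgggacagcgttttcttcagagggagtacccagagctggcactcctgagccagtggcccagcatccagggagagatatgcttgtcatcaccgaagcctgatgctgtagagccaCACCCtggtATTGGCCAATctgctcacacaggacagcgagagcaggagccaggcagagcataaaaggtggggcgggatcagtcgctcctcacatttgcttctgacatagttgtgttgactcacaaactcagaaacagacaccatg

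The defensin genes Defa5, RatNP-3b and Np4 were higher in SHRSP. Defa5 had 8.0, 7.86, 8.14 and 8.48 in SHRSP, against 6.97, 7.15 and 7.41 in F344, a difference of 0.95 (adjusted p = 7.11e-09 from limma), RatNP-3b had 7.58, 7.64, 7.72 and 7.72 in SHRSP, against 6.85, 7.07 and 7.16 in F344 (0.62, adjusted p = 1.01e-09), and Np4 had 7.41, 7.41, 7.60 and 7.78 in SHRSP, against 6.89, 7.01 and 7.19 in F344 (0.53, adjusted p = 6.46e-07). In none of these genes did the strains overlap, and in F344 all means were dim. Stfa2l1, a stefin-like inhibitor of cathepsins, was higher by 0.29. At week 14 all 4 were dim in both strains, with differences of -0.04 to -0.01, and all 4 interactions passed. Lcn2, a protein of neutrophil granules that binds bacterial siderophores and is also made by other stressed cells, had 9.55, 9.48, 9.59 and 9.51 in SHRSP, against 7.18, 7.24 and 7.30 in F344. Its difference was 2.29 (standard error 0.44, adjusted p = 0.00161) at E20 and 1.44 at week 14, where F344 hearts spread widely (8.37 ± 1.18, SD, n = 8).

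These 5 were the ones that passed of 25 genes (20%) grouped as genes of neutrophil granules, a list written after these values were seen. Which cells carried the RNA of Defa5, a member of this list, was not tested. The other 20 did not pass, and the defining genes Mpo, Elane, Camp, Ltf and S100a9 were dim in both strains with differences of -0.04 to 0.06. S100a8 had 8.38, 8.38, 8.38 and 8.47 in SHRSP, against 7.43, 7.76 and 8.31 in F344, which did not overlap but did not pass (0.59, adjusted p = 0.769). With only the E20 arrays in the fit its adjusted p was 0.0317. Of 7 platelet markers Pf4, a chemokine of platelets, passed, at 11.13, 9.79, 9.98 and 9.54 in SHRSP, against 8.36, 8.73 and 9.64 in F344 (1.33, adjusted p = 0.00267). SHRSP fetus 4 lay below the highest F344 fetus, and with fetuses 1 and 2 left out together the adjusted p was 0.125. None of 15 macrophage markers passed (limma, 0 at an unadjusted p under 0.05, and 1 lower with only the E20 arrays). How far the share of blood in the hearts contributed to these values was not tested.

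**Figure D3:**
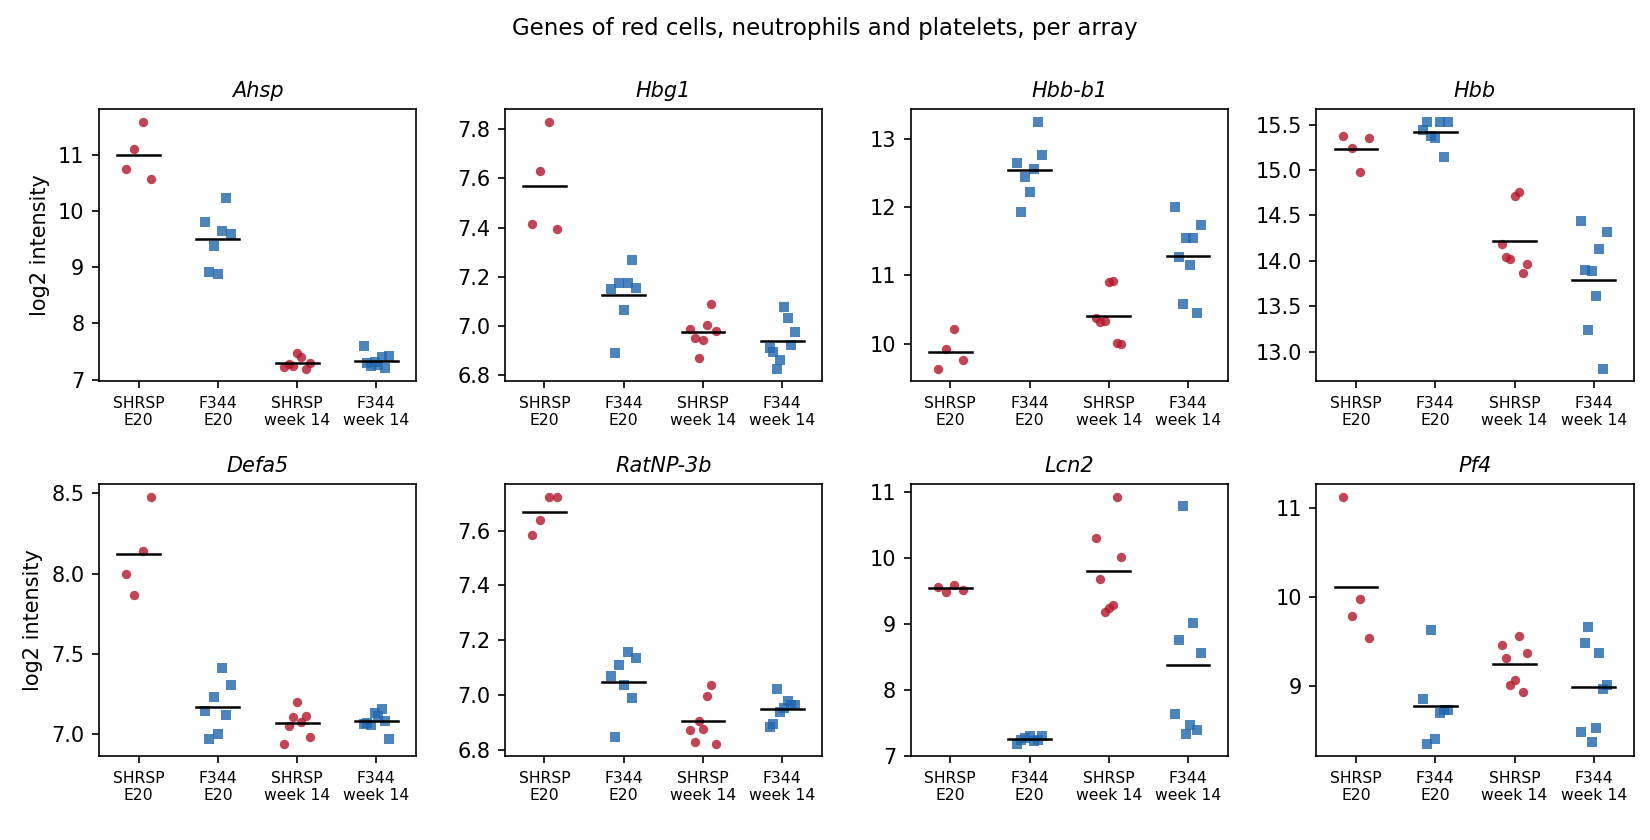
Log2 intensity (y axis, with its own range in each panel) of 8 genes listed for red cells, neutrophils and platelets in the 4 groups. Each point is 1 array and the line is the mean, with SHRSP as circles and F344 as squares. Ahsp, Hbg1, Defa5 and RatNP-3b separate the strains at E20 and lie together near the lower end of the scale at week 14, Hbb-b1 is lower in SHRSP and Hbb lies at the upper end at E20.

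The start regions of Np4 and RatNP-3b, which were higher together, are 81.6% identical over 320 aligned positions, with the same capitals as above. Np4 (chr16:77199593-77199892, minus strand) holds 1 CCAAT and no CACCC, and RatNP-3b (chr16:77248928-77249227, minus strand) holds 1 of each. Genes as similar as these may share probe signal.
Np4: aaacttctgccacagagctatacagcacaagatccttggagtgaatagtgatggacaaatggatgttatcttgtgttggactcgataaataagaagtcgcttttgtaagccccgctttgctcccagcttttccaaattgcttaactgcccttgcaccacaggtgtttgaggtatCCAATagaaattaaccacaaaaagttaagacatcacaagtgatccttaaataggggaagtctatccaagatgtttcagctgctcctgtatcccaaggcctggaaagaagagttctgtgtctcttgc
RatNP-3b: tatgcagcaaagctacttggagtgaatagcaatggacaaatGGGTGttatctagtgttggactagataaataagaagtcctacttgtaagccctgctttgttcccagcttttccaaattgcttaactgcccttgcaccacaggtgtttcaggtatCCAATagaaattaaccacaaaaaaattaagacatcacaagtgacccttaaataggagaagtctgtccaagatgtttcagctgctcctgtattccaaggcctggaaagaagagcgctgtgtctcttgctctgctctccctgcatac

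When no limit of the fold was set at E20, 70 genes (0.525%) met the same limits at week 14, an interval within -0.5 to 0.5 and an interaction that passed, with SHRSP higher at E20 in 32 and lower in 38. A small difference can still pass within these limits, and 11 of the 70 passed at week 14, among them Plbd1, Gsta4, Dnaja4 and 4 genes of opposite direction. At E20 37 of the 70 passed in every fit. Genes of this kind were named after their values were seen. Of the 70 genes 38 were dim in both strains at week 14, so that a difference there could hardly have been measured, and 32 were not. The number was 33 with the close SHRSP pairs averaged.

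The largest decrease of this kind was that of Lpl, the lipoprotein lipase that supplies the heart with fatty acids. Lpl had 11.23, 11.21, 11.55 and 11.89 in SHRSP, against 12.52, 12.64 and 12.85 in F344, a difference of -1.17 (SE 0.09, adjusted p = 2.17e-10, limma). At week 14 the mean was 15.33 in SHRSP (SD 0.11, n = 7) and 15.35 in F344 (SD 0.03, n = 8), a difference of -0.03 (95% interval -0.17 to 0.12) near the upper end of the scale, and the interaction was -1.15 (adjusted p = 8.15e-08). Lpl was the only 1 of 31 genes of fatty acid oxidation and uptake that passed at E20 (3.23%), with 2 more higher when only the E20 arrays were fitted or with array weights, and Cd36, the fatty acid transporter, had -0.14 (adjusted p = 0.84).

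Tmem176b, a membrane protein of dendritic cells and other tissues, had 8.37, 8.53, 8.44 and 8.39 in SHRSP, against 9.32, 9.45 and 9.61 in F344 (-1.03, adjusted p = 1.95e-06 from limma), and differed by -0.17 at week 14 with means of 8.91 and 9.08. Dnaja4, a co-chaperone of heat shock protein 70, had 9.86, 9.72, 9.65 and 9.81 in SHRSP, against 10.50, 10.66 and 10.92 in F344 (-0.92, adjusted p = 4.90e-09). At week 14 its small difference of -0.23 still passed (adjusted p = 0.0225). Both genes were measured well above the dim range at both stages. Spr, an enzyme of the synthesis of tetrahydrobiopterin, was lower by 0.61 on the log2 scale at E20, and Dctd, a deaminase that supplies nucleotides for DNA synthesis, by 0.58. At week 14 Dctd was dim in both strains, at 6.97 in SHRSP and 7.05 in F344, and Spr was not.

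Higher at E20 and within the limits at week 14, beside Ahsp and the defensins, were Rfc2, a subunit of the loader of the DNA clamp, with 8.14, 8.22, 8.41 and 8.15 in SHRSP, against 7.30, 7.51 and 7.59 in F344 (0.75, adjusted p = 2.62e-10 from limma), and Basp1, a protein of the inner cell membrane, with 9.21, 9.27, 9.06 and 8.83 in SHRSP, against 8.24, 8.43 and 8.56 in F344 (0.68, adjusted p = 5.92e-06). At week 14 Rfc2 was dim in both strains and Basp1 stood at 7.38 in SHRSP and 7.59 in F344, where a difference could hardly have been measured. Plbd1, a phospholipase-like protein of myeloid cells, differed by 0.94 at E20 and by 0.31 at week 14 (interaction 0.63, adjusted p = 0.000789). The unnamed probe ILMN_1376550 had 11.60, 11.45, 10.98 and 11.03 in SHRSP, against 9.01, 9.33 and 9.76 in F344, and was dim in both strains at week 14. ILMN_1650334 had 7.61, 7.74, 7.70 and 7.60 in SHRSP, against 9.37, 9.52 and 9.59 in F344, and 9.12 in SHRSP and 9.03 in F344 at week 14. Their differences were 1.88 and -1.84 at E20 and -0.03 and 0.08 at week 14.

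Of the 5 genes that passed at both stages in opposite directions, none passed at E20 in every fit. They were Ddr1, a collagen receptor (-0.31 at E20 and 0.18 at week 14), Ddx10 (0.21 and -0.22), Myl1, a light chain of fast myosin (-0.22 and 0.69), Crmp1 (0.25 and -0.21) and RT1-CE7 (-0.34 and 0.33). With the close SHRSP pairs averaged, all 5 lost the call at E20 (adjusted p = 0.0986 to 0.375 from limma). Leaving out 1 fetus ended the call of Ddx10 (SHRSP fetus 3), of Crmp1 (SHRSP fetus 3 or 4 or F344 fetus 1, 2, 3 or 4) and of Myl1 (any SHRSP fetus or F344 fetus 1, 3, 6 or 7).

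Of the genes of the study's list of candidates, which were chosen because they differ at week 14, 34 have a named probe. The rest of that list is not counted here. Efcab6, which the paper puts forward as a new candidate, is not described in this report. At E20 19 of them passed (55.9%), 10 higher and 9 lower, where 3.74% of all genes passed. Of the 19, 18 passed in every fit, where 1.43% of all genes did. The exception was Atp6v1g2, a subunit of the proton pump, at 0.54 (adjusted p = 0.016 from limma), with an adjusted p of 0.0651 without SHRSP fetus 3 and of 0.212 with the close pairs averaged. The other 15 genes did not pass. With only the E20 arrays in the fit, 11 genes of the list were lower in place of 9.

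**Figure D4:**
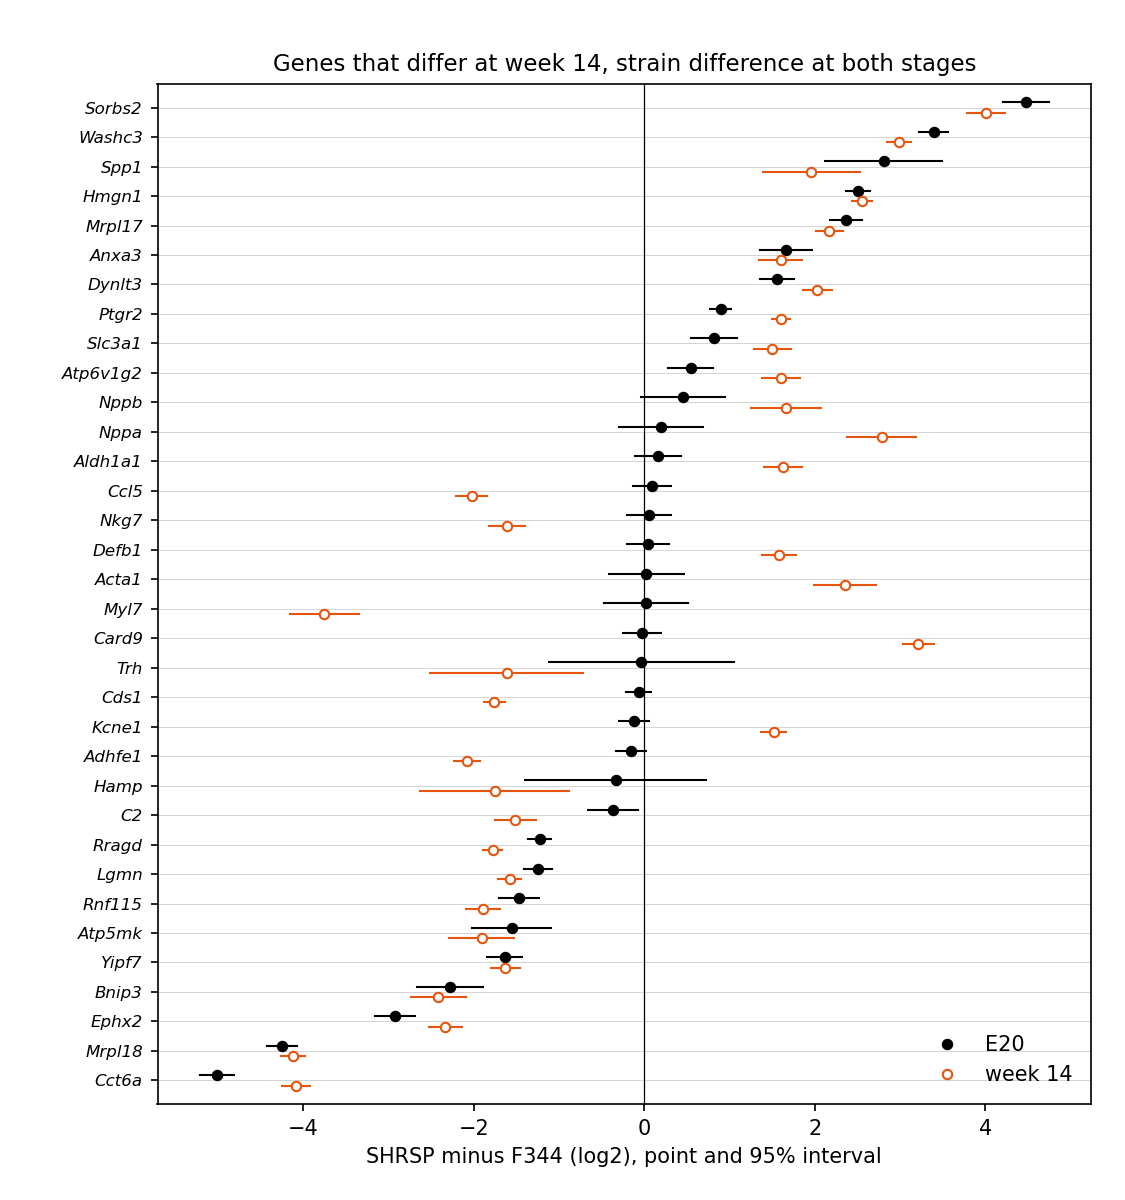
Log2 difference SHRSP minus F344 (x axis) of the 34 genes at E20 (filled points) and at week 14 (open points) with 95% intervals, ordered by the difference at E20. At both ends of the order the stages lie close together, and in the middle are genes that differ at week 14 and have a difference near 0 at E20.

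The main genes of wall stress and of the fetal program did not pass before birth. Nppa, the atrial natriuretic peptide, had 13.17, 13.25, 12.83 and 13.03 in SHRSP, against 12.46, 12.91 and 13.03 in F344, a difference of 0.20 (95% interval -0.29 to 0.68, adjusted p = 0.915 from limma), and 2.78 at week 14 (interaction -2.59, adjusted p = 1.81e-06). The paper's supplement, which discusses qPCR, reports Nppa higher in F344 than in SHRSP fetuses. Nppb, the brain natriuretic peptide, had 13.77, 13.73, 13.72 and 14.18 in SHRSP, against 13.09, 13.48 and 13.64 in F344. Its values did not overlap, but the difference of 0.45 did not pass (95% interval -0.04 to 0.94, adjusted p = 0.529), and it was 1.66 at week 14. Acta1, skeletal alpha actin, and Myl7, the atrial regulatory light chain, had differences of 0.02 each at E20, with intervals of -0.42 to 0.46 and -0.47 to 0.51. Both lay in the upper part of the scale in all fetuses, at 14.66 to 15.04 and at 13.55 to 14.28.

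Card9, an adaptor of innate immune signalling, Kcne1, a subunit of potassium channels, and Defb1, a beta defensin of epithelia, were dim or at the edge of the dim range in all fetuses and differed by -0.03, -0.12 and 0.04 at E20, against 3.21, 1.51 and 1.58 at week 14. For Card9 the paper's qPCR did not show the higher level in SHRSP at week 14, and the paper excluded it as a candidate. In all, 25 of the 45 probes called at week 14 were not called at E20, and 21 of them carry a name. Of the 21 genes 6 passed at E20 with no limit on the fold and 15 did not, and 13 of the 15 passed the interaction. For 9 of the 15 the E20 interval lay within -0.5 to 0.5. Of these 9, 7 were dim in both strains at E20, where a difference in RNA was not detectable, and Acta1 and Aldh1a1, an enzyme of retinoic acid synthesis, were not. The genes that passed at E20 with a smaller difference than at week 14 included Rragd, a GTPase that signals amino acids to mTORC1, at -1.23 and -1.78 (interaction 0.55, adjusted p = 9.34e-05). Slc3a1, a subunit of a transporter of cystine, had 0.82 and 1.5 (interaction -0.69, adjusted p = 0.0174). Rnf115, a ubiquitin ligase, had -1.47 and -1.89, and Lgmn, a lysosomal protease, -1.25 and -1.58, and their interactions did not pass (adjusted p = 0.159 and 0.0953).

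Several programs of the heart showed no passing gene at E20, namely 11 genes of heart muscle identity, 22 cardiac transcription factors, 34 genes of the cell cycle, 8 atrial genes, 32 immediate early and stress genes and 11 genes of the circadian clock (limma, 3, 1, 3, 0, 3 and 0 of them at an unadjusted p under 0.05). In the alternative fits 1 gene of heart muscle identity passed as lower without F344 fetus 1 or 5, with the filter on dim probes and with the leading component of the E20 residuals as a covariate. For the cell cycle 1 gene passed as higher without F344 fetus 1, without SHRSP fetus 3 and with array weights, and 2 did so without SHRSP fetuses 3 and 4. Of the immediate early and stress genes 1 passed as lower without F344 fetus 1, with array weights and with the replicate block. Myh6 and Myh7, the myosin heavy chains of the heart, had differences of 0.04 (95% interval -0.14 to 0.22) and 0.02 (-0.19 to 0.24), and Tnnt2, cardiac troponin T, of 0.03 (-0.11 to 0.17), and all lay in the upper part of the scale. Of 14 genes of fetal growth 2 passed (14.3%), Igfbp3, a carrier of insulin-like growth factors (0.84), and Dlk1, an imprinted inhibitor of differentiation (-0.59). Both lost the call with SHRSP fetuses 1 and 2 left out together (adjusted p = 0.235 and 0.202). Notch1, a receptor of vessel and valve development, was higher by 0.36 at E20 and by 0.27 at week 14, and Cd34, a surface protein of endothelial and blood precursor cells, by 0.47 and 0.57.

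Some genes that passed lie next to each other. In the gene order of RefSeq, 56 of the 499 genes (11.2%) had a measured neighbour that passed too, against 919 (7.17%) of the genes that did not pass, which is a description without a test. In 2 places 3 measured neighbours in a row passed. The first row holds Gnpda2 (-0.66), Guf1 (-0.35) and the called gene Yipf7, and the second holds Pdp1 (-0.39), Tmem67 (-0.14) and Runx1t1 (-0.32), and all 6 were lower in SHRSP. The neighbours of Yipf7 and the genes of the second row are named for their position, whatever their calls in the alternative fits.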

How the data were processed

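RNA of individual rat hearts was hybridised to Illumina RatRef-12 BeadChips by the authors, exported from GenomeStudio and checked in lumi, and arrays with a correlation within their group of 0.95 or less were left out. No background correction is named. The deposited log2 values, quantile-normalized by the authors over all arrays, were used as they are for 22523 probes on 26 arrays. A table of raw intensities was not used, since the names of its 52 columns do not say which sample each is. Groups and replicate numbers come from the sample labels.

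All 26 arrays entered 1 model in limma 3.58.1 (R 4.3.3), a mean per group, with Benjamini-Hochberg adjustment across the 22523 probes. The differences are SHRSP minus F344 at E20, the same at week 14, and E20 minus week 14 for the interaction. A probe was called past a log2 difference of 1.5 at an adjusted p under 0.05. A difference at E20 was absent at week 14 where the 95% interval there lay within 0.5 of 0 and the interaction passed. The fit was tested on simulated data.

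A single gene name was found for 13793 probes in the array's annotation and none for 8730, and 13752 names were updated through the gene ID. A gene is given by its brightest probe. The genes named are those of the study's list of candidates, the called genes, those within the limits at week 14 or of opposite direction, and up to 4 members of each list with the largest differences that passed. Others, such as Tfam, Plbd1 and the genes given as not different, were chosen after their values were seen. The members and lists were chosen with earlier results of these data known.

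Alternatives were a fit of the 11 E20 arrays only, the replicate number as a block, limma-trend, array weights, a filter at a mean of 7.5, quantile normalization within each stage, cyclic loess, the close SHRSP pairs averaged and each E20 array left out in turn. Leaving out either close pair and a covariate from the E20 residuals were added after the data were seen. Promoters and gene order come from RefSeq. Python 3.11.15 with pandas 2.3.3 and Matplotlib 3.10.9 drew the plots. The number of arrays limits the precision.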

Additional observations from a re-analysis of the deposited data

Results flagged for a closer look

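The measured strain difference changed between E20 and week 14 in 41 of the 93 genes and unnamed probes described. This was judged by the interaction in limma with an adjusted p under 0.05, which 3.44% of all genes passed. Many of the 93 were chosen by their interaction or their difference at week 14. Their share is therefore raised by the choice and cannot be set against that of all genes. The values in parentheses are the difference SHRSP minus F344 at E20 less that at week 14. Higher in SHRSP at E20 and closer to F344 at week 14 were Ahsp (1.55), Hbg1 (0.41), Defa5 (0.96), RatNP-3b (0.66), Np4 (0.55), Stfa2l1 (0.32), Plbd1 (0.63), Rfc2 (0.65), Basp1 (0.89) and ILMN_1376550 (1.91). Lower in SHRSP at E20 and closer to F344 at week 14 were Lpl (-1.15), Tmem176b (-0.85), Dnaja4 (-0.69), Dctd (-0.50), Spr (-0.51), ILMN_1650334 (-1.93), Dlk1 (-0.58) and Myl9 (-0.82). A difference of the same direction measured larger at E20 in Washc3 (0.40), Rps16 (0.70), Cct6a (-0.93), Ephx2 (-0.59), Hbb-b1 (-1.78) and Gsta4 (-0.37) and larger at week 14 in Dynlt3 (-0.48), Ptgr2 (-0.71), Slc3a1 (-0.69), Atp6v1g2 (-1.06) and Rragd (0.55). A difference found at week 14 and not at E20 gave the values of Nppa (-2.59), Nppb (-1.21), Acta1 (-2.33), Myl7 (3.78), Card9 (-3.24), Kcne1 (-1.64) and Defb1 (-1.54). The 5 genes of opposite direction were Ddr1 (-0.49), Ddx10 (0.43), Myl1 (-0.91), Crmp1 (0.46) and RT1-CE7 (-0.67). For Cct6a (7.24 at E20 and 7.16 at week 14 in SHRSP) and Washc3 (7.14 and 7.29 in F344) 1 strain was dim at both stages, so the value follows the level of the other strain and does not show that the difference in RNA changed. The lower end of the scale limits the value in the same way where 1 or both strains were dim at 1 or both stages, as in Ahsp, Hbg1, Defa5, RatNP-3b, Np4, Stfa2l1, Rfc2, Basp1, ILMN_1376550, Dctd, Dlk1, Rps16, Ephx2, Ptgr2, Card9, Kcne1, Defb1, Ddr1, Crmp1 and RT1-CE7. Tissue and RNA kit may differ between the stages in both strains.

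In 7 of the 186 groups of E20 values tested (3.76%) 1 fetus stood apart from the rest of its group by Dixon's criterion, which chance gives in about 1 of 20 groups. In SHRSP, fetus 3 had the lowest Bnip3 (10.06, next 10.41), and fetus 4 had the highest Nppb (14.18, next 13.77) and the highest S100a8 (8.47, next 8.38). In F344, fetus 1 had the highest Rps23 (12.74, next 12.19), fetus 3 the highest Pf4 (9.64, next 8.86), fetus 4 the highest Rnf115 (10.38, next 10.22) and fetus 7 the lowest Nppa (12.46, next 12.89).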

How the results depend on the processing

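The 28 called probes were the steadiest result. With each of the 11 E20 fetuses left out in turn, 13 to 15 probes were called higher and 13 to 14 lower in SHRSP, 19 to 20 were called at both stages and 2 to 3 were absent at week 14. All 28 were also called in the fit of the E20 arrays alone, with limma-trend, with cyclic loess, with quantile normalization within each stage, with the filter on dim probes and with the close SHRSP pairs averaged. Ahsp fell under the limit of the fold without SHRSP fetus 2 or 3, without F344 fetus 2, 3 or 4 and with array weights.

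The counts with no limit on the fold moved more. Array weights gave 608 probes higher and 620 lower and 119 genes within the limits at week 14, in place of 70. With the close SHRSP pairs averaged there were 159 higher and 184 lower and 33 such genes, without SHRSP fetuses 1 and 2 199 higher and 213 lower, and without fetuses 3 and 4 243 lower. With 1 fetus left out, 249 to 424 probes were higher and 268 to 415 lower, and 51 to 85 genes were within the limits at week 14. The fit of the E20 arrays alone gave 467 higher and 476 lower. Averaging and leaving out fetuses leave fewer samples, and the other causes were not tested. Over the genes and unnamed probes described and all alternatives, 1953 values kept direction and side of the threshold, 77 lost the threshold, 1 gained it and 0 changed direction.

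The replicate numbers were not taken as a pairing of the fetuses, and the deviations of same-numbered fetuses correlated at -0.0256 to 0.396. For numbers 2, 3 and 4 a fetus of another number correlated more, at 0.470, 0.417 and 0.314. For number 1 none did (0.396, against 0.156 at best). With the replicate number as a block, 14 probes were called higher and 13 lower, 348 passed higher and 355 lower, 19 were called at both stages, 3 were absent at week 14 and 75 genes were within the limits at week 14. The block ended the call of Atp5mk at the limit of the fold. Differences between dim probes, and between those at the upper end of the scale, are limited by the signal.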
